A study of Homo sapiens with 36 samples.

Results

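In H3255 cells, the control aptamer C36 was followed by higher RNA of a small number of genes, among them the interferon-response genes ISG15, IFI6 and IRF9 and the stress genes ATF3 and ASNS, and by lower RNA of others, among them ICAM1, ANXA1 and KRT4. H3255 is an established human non-small cell lung cancer line that carries EGFR with the L858R change. Aptamers are folded nucleic acids selected to bind a target. C36 was given here in an extended form as the control for MinE07, an aptamer against EGFR, so comparing it with vehicle asks what an aptamer does in these cells apart from the EGFR-directed one. The comparison uses 6 of the 36 libraries of the series, 3 from C36 and 3 from vehicle, and the genes with a mean of at least 1 FPKM (a read-fragment count divided by transcript length and library size) over those 6 libraries. These were 13349 of the 66366 named genes.

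All H3255 cells were kept in RPMI, with serum lowered to 1% for treatment. C36 was used at 3 µM for 24 h after folding in DPBS with magnesium, and vehicle cells got DPBS with magnesium alone. A further 3 H3255 libraries, treated with MinE07 at the same dose and time, entered the model only through the estimate of the spread. The series record describes the replicates as biologically independent experiments, and the line stands for one genotype and one background.

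Relative depth was read from the most frequent ratio of FPKM between pairs of H3255 libraries at genes with low values. It was 0.764 to 1.15 of the median library in the C36 group and 0.592 to 1.0 in the vehicle group. The absolute depth is not known. Between 13236 and 13339 genes exceeded 1 FPKM per library, and the summed FPKM lay between 427389 and 438377. Vehicle replicate 1 had the highest share of ribosomal RNA genes, 1.95% of its summed FPKM against 0.642% to 1.32% in the other 5 libraries, and the lowest correlations with them (r = 0.95 to 0.96). Small nuclear RNA genes made up 0.0575% to 0.0856% of the summed FPKM with C36 and 0.0898% to 0.320% with vehicle. For 7SL RNA genes the shares were 0.0679% to 0.0827% and 0.0895% to 0.240%. Neither class overlapped between the groups, and the part of this difference in the results was not tested. C36 replicate 1 had the highest of the 3 C36 values for 23 of the 29 tested interferon-stimulated effector genes, against 37.9% of all tested genes. Its part in the results was not tested beyond leaving it out.

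Epithelial and lung markers were present, though they do not tell H3255 from other lung lines. EPCAM, an epithelial adhesion protein, stood at 215 ± 4.27 FPKM with C36 and 214 ± 4.36 with vehicle (SD, n = 3 each), and KRT8, a simple epithelial keratin, at 711 ± 4.85 and 779 ± 12.2. NKX2-1, a transcription factor of lung epithelium, stood at 69.1 ± 2.63 and 73.4 ± 2.16 FPKM. Of 10 leukocyte and endothelial markers only CD68 passed the filter, and CD3E was listed at 0 in all 6 libraries. That list's summed level ran from 2.31 to 2.61 FPKM with C36 and from 2.23 to 2.63 with vehicle. Of 12 mesenchymal markers, VIM, COL1A1 and ACTA2 passed, with a summed level of 10.8 to 11.4 against 11.8 to 12.2 FPKM, and CDH2 was listed at 0 throughout. COL1A2, another collagen gene, was listed at 0.230 FPKM in C36 replicate 2 against 0 to 0.00605 in the other 5 libraries. The part of that replicate in the results was not tested beyond leaving it out.

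Cells detect foreign RNA with receptors such as RIG-I (gene RIGI) and MDA5 (gene IFIH1), which signal through MAVS to the kinase TBK1 and the factors IRF3 and IRF7, and so switch on interferon genes. Secreted interferon then acts through its receptors on a complex that contains IRF9 and binds interferon-stimulated response elements in the promoters of effector genes. The integrated stress response is a separate programme in which kinases that sense double-stranded RNA, amino acid shortage or misfolded protein favour translation of ATF4, a factor that binds sites with the letters TGATGNAA and related ones.

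The promoters of 3 genes that rose are printed because they hold matches to the core letters of an interferon-stimulated response element, GAAA followed by any 2 bases and GAAA again, searched on both strands. That of ASNS is printed for its match to TGATGNAA, the form of ATF4 sites searched. Each run is the 250 bases before the RefSeq start in GRCh38.p14, on the gene's strand and 5′ to 3′, and capitals mark the matches. ISG15 covers chr1:1013247-1013496 on the plus strand, IFI6 chr1:27672193-27672442 on the minus strand, IFIH1 chr2:162318685-162318934 on the minus strand and ASNS chr7:97872409-97872658 on the minus strand.
ISG15: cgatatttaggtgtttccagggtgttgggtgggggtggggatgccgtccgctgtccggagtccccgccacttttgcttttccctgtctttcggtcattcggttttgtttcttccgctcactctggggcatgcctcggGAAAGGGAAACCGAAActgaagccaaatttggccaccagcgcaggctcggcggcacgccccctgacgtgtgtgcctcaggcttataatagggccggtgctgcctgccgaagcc
IFI6: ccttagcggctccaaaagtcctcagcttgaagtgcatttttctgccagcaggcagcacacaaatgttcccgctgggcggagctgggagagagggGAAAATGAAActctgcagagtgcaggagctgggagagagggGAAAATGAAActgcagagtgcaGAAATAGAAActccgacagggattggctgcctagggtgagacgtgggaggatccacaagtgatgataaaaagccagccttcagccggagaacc
IFIH1: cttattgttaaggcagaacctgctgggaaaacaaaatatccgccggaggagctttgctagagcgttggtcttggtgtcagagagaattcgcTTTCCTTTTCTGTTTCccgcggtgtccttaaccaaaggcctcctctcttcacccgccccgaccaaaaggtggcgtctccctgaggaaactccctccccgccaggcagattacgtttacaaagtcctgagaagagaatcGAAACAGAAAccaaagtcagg
ASNS: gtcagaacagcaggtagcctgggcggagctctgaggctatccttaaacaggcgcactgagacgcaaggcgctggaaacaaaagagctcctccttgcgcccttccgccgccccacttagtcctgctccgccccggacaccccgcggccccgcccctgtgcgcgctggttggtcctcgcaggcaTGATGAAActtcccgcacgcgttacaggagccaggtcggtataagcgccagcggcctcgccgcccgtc
In ISG15 the 2 matches overlap, from 113 to 98 bases before the start. IFI6 has 3 separate matches, the nearest at 93 bases. IFIH1 has 2 overlapping matches that read on the opposite strand (TTTC in the printed run) and 1 that starts 21 bases before the start. The response-element letters occurred in 3 of the 20 genes that rose and have an entry in the promoter table, in 0 of the 15 that fell, and in 2.96% of the 9261 tested genes with an entry. Among tested interferon-stimulated effectors 15 of 25 held them. TGATGNAA stood in ASNS and ATF3 among the genes that rose (2 of 20), in 2.07% of tested genes and in 5 of 20 tested stress-response genes. A match is a description of letters, not a bound site.

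In limma, 43 of the 13349 genes passed a Benjamini-Hochberg adjusted p of 0.05, the threshold for a called change (0.322% of those tested), 24 higher with C36 (0.18%) and 19 lower (0.142%). The 43 hold 41 distinct gene names, since IRF9 and SQSTM1 are each listed a second time under a numbered copy. An unadjusted p under 0.05 was reached by 2143 genes. The changes were small, with a median absolute log2 change of 0.28 among called genes, and 2 genes, ISG15 and IFI6, exceeded 1. Log2 changes here are of FPKM + 0.5, which understates the change of low genes. The median over all tested genes was 0.02, and 61.2% of genes were higher.

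**Figure D1:**
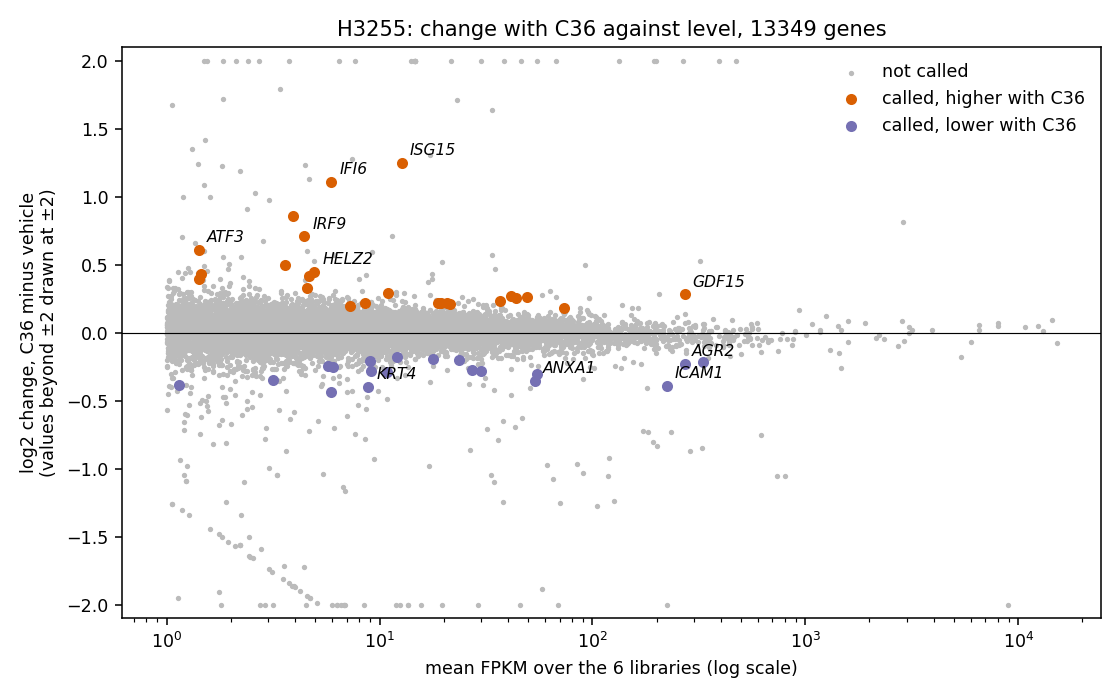
Each point is 1 of the 13349 tested genes, with mean FPKM over the 6 libraries on a log axis and the log2 change, C36 minus vehicle, on the vertical axis. Orange and purple points are the 24 called higher and 19 called lower genes, most of which lie within 0.5 of zero. Values beyond 2 in either direction are drawn at 2.

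ISG15, a ubiquitin-like protein attached to other proteins in antiviral responses (chromosome 1, 1001138 to 1014540, plus strand, GRCh38), showed the largest called rise. Its level was 22.8, 16.4 and 15.6 FPKM in the 3 C36 libraries and 7.79, 7.57 and 6.54 in the vehicle libraries. Every C36 library was thus above every vehicle library, with C36 replicate 1 the highest. The group means were 18.2 ± 3.95 and 7.30 ± 0.667 FPKM (SD, n = 3 each), a 2.50-fold difference with a log2 change of 1.25 (SE 0.139, limma adjusted p = 0.0351). In RNA from whole wells, more RNA per cell and more responding cells cannot be told apart. IFI6, a small membrane protein induced by type I interferon (chromosome 1, 27666061 to 27672218, minus strand), stood at 10.7, 7.63 and 6.75 FPKM with C36 and 3.27, 3.30 and 4.05 with vehicle. The groups did not overlap, and the log2 change was 1.11 (SE 0.151, limma adjusted p = 0.0448). HELZ2, a helicase that acts as a nuclear receptor coactivator and is induced by interferon, rose from 4.10 ± 0.109 to 5.80 ± 0.657 FPKM, a log2 change of 0.45 (limma adjusted p = 0.0351).

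Among the sensors, both cytosolic RNA helicases rose. IFIH1 (chromosome 2, 162267079 to 162318703, minus strand) measured 1.84, 1.55 and 1.63 FPKM with C36 and 1.20, 1.16 and 1.08 with vehicle, a log2 change of 0.40 (limma adjusted p = 0.0429). RIGI measured 5.48, 4.99 and 4.97 FPKM against 3.64, 4.24 and 4.11, a log2 change of 0.33 (limma adjusted p = 0.0494). ZC3HAV1, a zinc-finger antiviral protein that binds CpG-rich RNA, stood at 12.1 ± 0.623 against 9.78 ± 0.236 FPKM and rose by 0.29 on the log2 scale (limma adjusted p = 0.0377). For each of these the 2 groups of libraries did not overlap, as in 17.1% of all tested genes in that direction.

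The list of RNA sensors and adaptors has 28 genes, 16 of which were tested. Higher values with C36 were seen in 15 of the 16, against 61.2% of all tested genes. IFIH1 and RIGI, 2 of the 16, were called, where 0.18% of all tested genes were called higher. The median log2 change of the 16 was 0.18, against 0.02 over all tested genes. In 10 of 16 all C36 libraries were above all vehicle libraries, as in 17.1% of all tested genes. OAS1, which makes the second messenger of RNase L, stood at 2.22, 1.71 and 1.42 FPKM with C36 and 0.952, 0.716 and 1.14 with vehicle, with a log2 change of 0.66 that missed the threshold (limma adjusted p = 0.0816). OAS1 passed the filter only through its C36 libraries, since its vehicle mean was 0.937 FPKM. It is counted in this list and among the effectors. EIF2AK2, the double-stranded RNA kinase PKR, measured 6.32 ± 0.357 against 5.20 ± 0.271 FPKM (log2 change 0.26, limma adjusted p = 0.0825). Values for ADAR, an RNA-editing enzyme, were 41.2 ± 0.827 and 36.5 ± 0.454 FPKM (0.17, limma adjusted p = 0.0517). MAVS, IRF3, TBK1 and STING1 lay between 0.04 and 0.09 on the log2 scale, and none was called.

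Of the 27 interferons, receptors and signalling genes, 18 were tested, 9 were higher and 9 lower, and 1, IRF9, was called. Over all tested genes 61.2% were higher and 0.18% were called higher. IRF9, the DNA-binding factor of that complex (chromosome 14, 24161053 to 24166565, plus strand), measured 6.76, 5.21 and 4.95 FPKM with C36 and 3.09, 3.36 and 3.22 with vehicle. The groups did not overlap, and the log2 change was 0.71 (SE 0.112, limma adjusted p = 0.0461). Its numbered copy changed by 0.86 (limma adjusted p = 0.0211). How fragments were divided between the entries is not given in the sources used here, so the pair is not independent. STAT2, another signalling factor of the pathway, stood at 9.0 ± 0.203 against 9.18 ± 0.157 FPKM (-0.03, limma adjusted p = 0.762). USP18, which removes ISG15 from proteins and dampens the receptor, measured 5.78 ± 0.158 against 4.81 ± 0.221 FPKM (0.24, limma adjusted p = 0.0525). IFNAR2, a chain of the type I receptor, had its C36 libraries below those of vehicle, 3.63 ± 0.113 against 4.32 ± 0.329 FPKM (-0.22, limma adjusted p = 0.0991).

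Of 58 interferon-stimulated effectors, 29 were tested. Higher values were seen in 25 of the 29, 3 were called (ISG15, IFI6 and HELZ2), and 15 had C36 libraries wholly above vehicle against 0 wholly below. Over all tested genes 17.1% were wholly above and 7.35% wholly below, 61.2% were higher and 0.18% were called higher. The median log2 change of the 29 was 0.15, against 0.02 over all genes. IFITM1, a membrane protein that restricts viral entry, stood at 22.2, 20.6 and 18.6 FPKM with C36 and 14.95, 14.83 and 15.09 with vehicle (0.44, limma adjusted p = 0.0769). PARP9, the partner of the ubiquitin ligase DTX3L, stood at 5.33 ± 0.663 against 4.11 ± 0.150 FPKM (0.33, limma adjusted p = 0.0769). The lowest values of the list were those of UBE2L6 (-0.12), the ISG15-conjugating enzyme, and ISG20 (-0.06), an exonuclease. Among 13 tested antigen-presentation genes 7 were higher and 6 lower, limma called 0 (2 at an unadjusted p under 0.05) and the median was 0.01, or -0.01 after rescaling by medians of ratios.

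**Figure D2:**
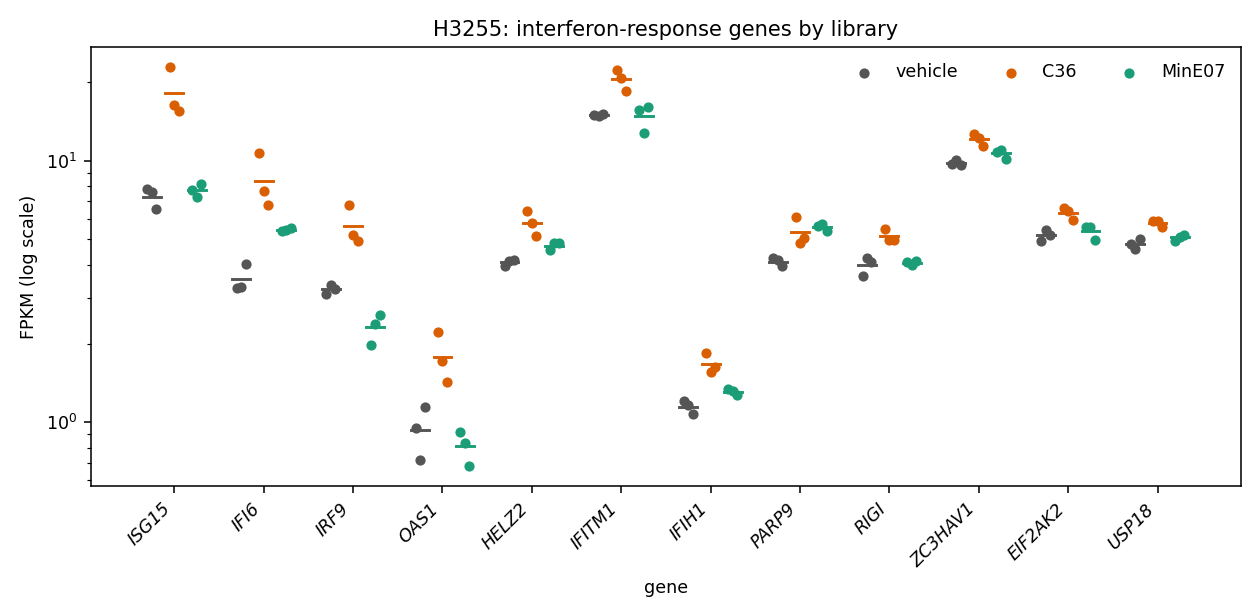
FPKM on a log axis for 12 interferon-response genes, with 1 point per library and a bar at each group mean, for vehicle, C36 and MinE07 (n = 3 each). C36 points of ISG15, IFI6 and IRF9 lie above all vehicle and MinE07 points, and C36 replicate 1, drawn leftmost, is the highest in each.

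The other 29 effectors lay under the mean of 1 FPKM and outside the tested set. In 19 of them every C36 library was above every vehicle library and in 0 every one was below, against 5.02% and 3.5% of the 22822 genes under that mean with a value above 0. IFIT2, which binds RNA, measured 1.53, 1.46 and 1.64 FPKM with C36 and 0.149, 0.193 and 0.201 with vehicle. IFIT3, its partner, measured 1.55, 1.36 and 1.44 against 0.455, 0.428 and 0.443. OASL, an enhancer of RIG-I signalling, measured 1.06, 0.867 and 1.13 against 0.0378, 0.0211 and 0.0510. RSAD2, the antiviral enzyme viperin, stood at 0.227, 0.292 and 0.351 FPKM with C36 and 0.0117, 0.0183 and 0.00580 with vehicle. The libraries of these genes, named after their values were seen, did not overlap. When all 36171 genes were fitted without the filter, 6 were called (0.0166%). These were IFIT2 (log2 change 1.58, limma adjusted p = 0.000485), OASL (1.498, limma adjusted p = 0.000487), IFIT3 (1.05, limma adjusted p = 0.000553), RSAD2 (0.62, limma adjusted p = 0.0311), ICAM1 and ANXA1.

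MX1, a GTPase that blocks viral nucleocapsids, measured 2.13, 1.36 and 0.630 FPKM with C36 and 0.2498, 0.204 and 0.191 with vehicle, and IFIT1 measured 0.917, 0.590 and 0.557 against 0.0659, 0.136 and 0.149. Without the filter neither was called (limma adjusted p = 0.224 for MX1 and 0.0865 for IFIT1). For both genes the groups did not overlap, although the C36 libraries themselves spread widely for MX1. IFI27 stood at 0.335, 0.244 and 0.219 FPKM with C36 and 0.0801, 0.216 and 0.134 with vehicle. The interferon genes themselves were near 0. IFNB1, which encodes interferon beta, was listed at 0.0344, 0.0682 and 0.189 FPKM with C36 and at 0 in each vehicle library, and IFNL1 at 0.0762, 0.0126 and 0.0652 against 0. IFNA1, IFNE and IFNG were listed at 0 in all 6 libraries.

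Of the integrated stress response list, ATF3 and ASNS rose, and single genes of other lists rose as well. ATF3, a stress-induced repressor downstream of ATF4 (chromosome 1, 212565334 to 212620777, plus strand), measured 1.99, 1.78 and 1.68 FPKM with C36 and 0.942, 1.25 and 0.889 with vehicle, without overlap. Its log2 change was 0.61 (SE 0.0930, limma adjusted p = 0.0377). ASNS, asparagine synthetase, rose from 33.8 ± 0.733 to 39.9 ± 0.490 FPKM, a log2 change of 0.24 (limma adjusted p = 0.0448). GDF15, a secreted stress cytokine, measured 290.4, 307.5 and 295.4 FPKM against 235.7, 249.1 and 249.6, a log2 change of 0.28 (limma adjusted p = 0.0351). SQSTM1, the autophagy receptor p62, rose from 44.7 ± 1.67 to 53.6 ± 0.629 FPKM, a log2 change of 0.26 (limma adjusted p = 0.0254), and its numbered copy by 0.27. SRXN1, the sulfiredoxin of the NRF2 antioxidant set, rose by 0.21 (limma adjusted p = 0.0448), and ATG4B, a protease that processes autophagy proteins, by 0.20 (limma adjusted p = 0.0461).

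Of 21 tested integrated-stress genes, 18 were higher, 3 lower and 2 called (ATF3 and ASNS), with a median of 0.14. C36 libraries lay wholly above vehicle in 13 and wholly below in 1, HSPA5, the chaperone BiP, against 17.1% and 7.35% of all tested genes. DDIT3, the factor CHOP, stood at 16.0, 15.7 and 16.2 FPKM against 12.05, 13.7 and 13.75 (0.27, limma adjusted p = 0.0754). SLC7A11, the cystine transporter, stood at 4.35, 3.94 and 3.97 against 3.29, 3.32 and 3.24 (0.28, limma adjusted p = 0.0525). ATF4 itself measured 163 ± 1.11 against 144 ± 6.38 FPKM (0.18, limma adjusted p = 0.0618). In the other direction, 11 of 12 heat-shock genes had values below vehicle, with a median of -0.04 and 0 called in limma (1 at an unadjusted p under 0.05). Of 22 tested p53 and apoptosis genes 17 were higher and 1, GDF15, was called, while CDKN1A, the p53 target p21, stood at -0.01 (limma adjusted p = 0.953). The proapoptotic BCL2L11 had a log2 change of 0.26 (limma adjusted p = 0.051). In the NRF2 set 12 of 15 were higher and SRXN1 was the 1 called. Of 19 endosome and lysosome genes 16 were higher and 1, SQSTM1, was called. The endosome and lysosome median was 0.04, or 0.01 after rescaling by medians of ratios. Beside all these counts, 61.2% of all tested genes were higher and 0.18% were called higher.

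The other genes that rose have varied roles. THAP3, a zinc-finger protein, changed by 0.42, NOCT, a circadian phosphatase also called nocturnin, by 0.43, and the pseudogene PPIAP16, which can share reads with PPIA, by 0.50. THBD, the anticoagulant receptor thrombomodulin, changed by 0.26, and NEK9, a mitotic kinase, by 0.22. SPRY4, a feedback inhibitor of receptor tyrosine kinase signalling, BRPF3, a chromatin scaffold, and AVL9 each changed by 0.22. CDC25B, a phosphatase that activates cyclin-dependent kinases, rose from 68.8 ± 0.740 to 78.3 ± 1.38 FPKM (0.18, limma adjusted p = 0.0375).

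ICAM1 and ANXA1 had the smallest adjusted p among the genes that fell, followed by KRT4. ICAM1, the adhesion receptor that binds leukocyte integrins (chromosome 19, 10270835 to 10286615, plus strand), measured 190.7, 200.3 and 190.2 FPKM with C36 and 251.8, 252.0 and 257.1 with vehicle. It fell by 0.39 on the log2 scale (SE 0.0334, limma adjusted p = 0.00193), and the groups were far apart for their spread. ANXA1, a calcium-dependent membrane-binding protein with anti-inflammatory activity (chromosome 9, 73151757 to 73170393, plus strand), measured 47.5, 46.6 and 46.4 FPKM against 58.6, 61.4 and 60.4, and fell by 0.36 (SE 0.0311, limma adjusted p = 0.00193). KRT4, a keratin of stratified mucosal epithelium (chromosome 12, 52806549 to 52814551, minus strand), measured 7.43, 8.08 and 7.24 against 10.1, 10.0 and 10.3 FPKM, and fell by 0.40 (SE 0.0435, limma adjusted p = 0.0113). None of these 3 overlapped between groups, as in 7.35% of tested genes in that direction.

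ANXA3, another annexin, fell from 32.9 ± 0.689 to 27.1 ± 0.542 FPKM (log2 change -0.28, limma adjusted p = 0.0130). S100A10, which links annexin A2 to the membrane, fell from 356 ± 8.35 to 307 ± 7.02 FPKM (-0.21, limma adjusted p = 0.0377). RGS16, which shortens G-protein signals, fell from 3.61 ± 0.109 to 2.73 ± 0.0114 FPKM (-0.35, limma adjusted p = 0.0240). GPRC5A, an orphan receptor of lung epithelium, fell from 60.6 ± 0.453 to 49.1 ± 2.54 FPKM (-0.30, limma adjusted p = 0.0260). AGR2, a disulfide isomerase of secretory epithelium, fell from 292 ± 6.55 to 249 ± 5.21 FPKM (-0.23, limma adjusted p = 0.0267). Further falls were those of the matrix glycoprotein THBS1 (-0.28), the red-cell antigen protein SMIM1 (-0.44), the actin-binding NEXN (-0.39), SCHIP1 (-0.28) and the transcription cofactor LBH (-0.27). The remaining 6 were NDNF (-0.25), FAM13A (-0.24), the adhesion molecule CADM1 (-0.21), the spindle protein DLGAP5 (-0.20), the cytidine deaminase APOBEC3B (-0.19) and LINC00674 (-0.18). APOBEC3B has close paralogs that can share reads. NEXN passed the filter only through its vehicle libraries, with a mean of 1.36 FPKM against 0.922 with C36.

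**Figure D3:**
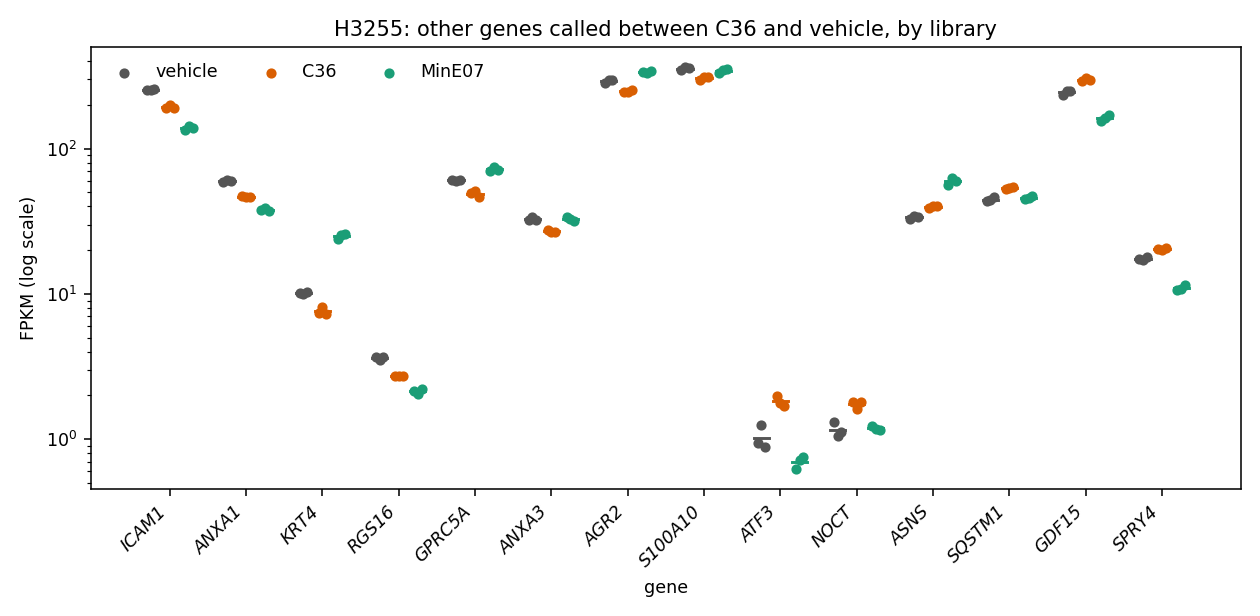
FPKM on a log axis for 14 called genes outside the interferon set, with 1 point per library and a bar at each group mean (n = 3 per group). ICAM1, ANXA1, KRT4 and RGS16 have C36 points below vehicle, and ATF3, NOCT, ASNS, SQSTM1, GDF15 and SPRY4 have them above. The MinE07 points of KRT4 and ASNS lie above both other groups.

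EGFR, ERBB2 and ERBB3 RNA showed no called change. EGFR measured 436.1, 418.2 and 414.4 FPKM with C36 and 415.0, 421.2 and 420.2 with vehicle (0.01, limma adjusted p = 0.856). ERBB2 stood at 74.2 ± 1.51 against 73.9 ± 1.17 FPKM (0.00, limma adjusted p = 0.961) and ERBB3 at 29.4 ± 0.210 against 28.8 ± 0.521 (0.03, limma adjusted p = 0.667). Of the 13 tested ERBB receptor and feedback genes limma called 0, and 0 had an unadjusted p under 0.05. Among 22 tested genes of EGFR-MAPK output 18 were higher with C36, against 61.2% of all tested genes. The median was 0.06, against 0.02 over all tested genes. SPRY4 was the 1 called, where 0.18% of all tested genes were called higher. It stood at 20.4, 20.0 and 20.6 FPKM against 17.4, 17.1 and 17.8. DUSP6, a phosphatase that inactivates ERK, stood at 254.5, 259.2 and 266.7 FPKM against 228.8, 241.0 and 248.5 (0.12, limma adjusted p = 0.173). EGR1, an immediate-early factor, stood at 20.1 ± 1.19 against 16.9 ± 0.355 (0.24, limma adjusted p = 0.0996).

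Of 17 tested hypoxia and glycolysis genes, 15 were lower with C36 and limma called 0, while 11 had an unadjusted p under 0.05, 10 of them lower. The median of -0.17 was the lowest among lists with at least 10 tested members, and 12 had C36 libraries wholly below vehicle, against 7.35% of all tested genes. BNIP3, a mitophagy receptor, stood at 36.9, 38.5 and 37.2 FPKM with C36 and 43.2, 44.4 and 48.0 with vehicle (-0.27, limma adjusted p = 0.0525). PFKFB4, a regulator of glycolytic flux, stood at 2.80 ± 0.237 against 3.68 ± 0.131 FPKM (-0.34, limma adjusted p = 0.0949). VEGFA and ANKRD37 were the 2 members above vehicle, at 0.13 and 0.17. Sterol and fatty acid genes were lower in 17 of 21, with a median of -0.07, 0 called in limma (5 at an unadjusted p under 0.05) and SCD, a desaturase, at -0.13 (limma adjusted p = 0.0629). Cell-cycle genes were lower in 21 of 31 with a median of -0.03 and 0 called in limma (8 at an unadjusted p under 0.05). NF-kB targets and cytokines divided 8 against 8, with ICAM1 the 1 called. For comparison with these counts, 5177 of the 13349 tested genes were lower with C36 and 0.142% were called lower. An unadjusted p under 0.05 was reached by 2143 of the 13349. CXCL8 stood at 23.6 ± 1.67 against 23.8 ± 1.80 FPKM (-0.01, limma adjusted p = 0.971) and IL6 at 2.60, 2.56 and 3.17 against 1.62, 1.62 and 1.91 (0.56, limma adjusted p = 0.0770).

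**Figure D4:**
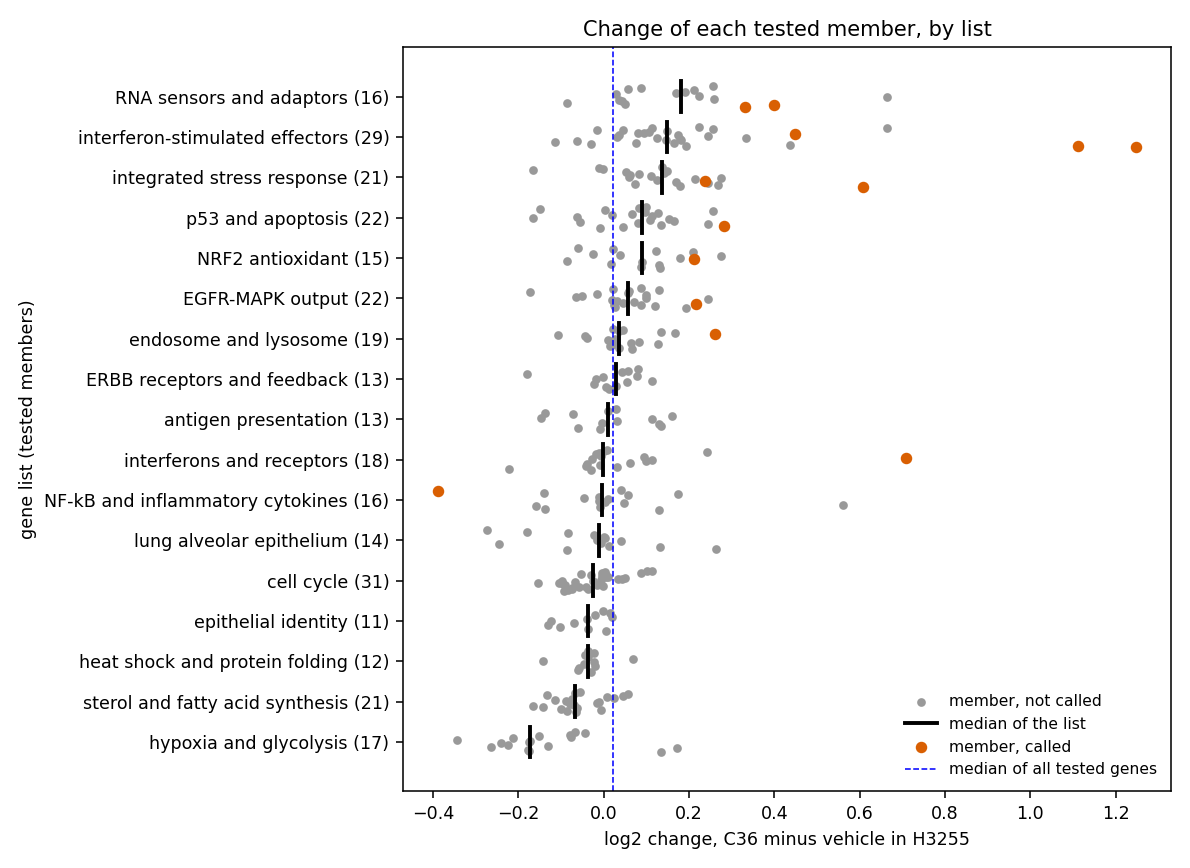
Log2 change, C36 minus vehicle, of every tested member of 17 gene lists, with black bars at list medians, orange points for called genes and a dashed line at the median of all tested genes (0.02). RNA sensors lie highest, with a median of 0.18, and hypoxia and glycolysis genes lowest, at -0.17.

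With the spread estimated from all 36 libraries of the 4 lines in place of the 9 of H3255, 381 genes were called in the same H3255 comparison, and 40 of the 43 were among them. These were 2.85% of tested genes, 246 higher (1.84%) and 135 lower (1.01%). A gene that spreads more in H3255 than in the other lines is called too readily in such a fit. The fit called 8 of 16 sensors, 10 of 29 effectors and 10 of 21 stress-response genes higher and 0, 0 and 1 lower. The gene called lower was HSPA5. OAS1 and OAS3 are in both the sensor and the effector list and are counted in each. In the hypoxia and glycolysis list the fit called 9 of 17 lower, including BNIP3, SLC2A1, NDRG1, HK2 and LDHA, and 0 higher.

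The calls rested on few libraries. With the 6 C36 and vehicle libraries alone 26 genes were called, and 17 of the 43 were among them. ICAM1, ANXA1, KRT4, GDF15, ASNS and SQSTM1 passed in that fit, whereas ISG15 (limma adjusted p = 0.0804), IFI6 (0.109), IRF9 (0.0608), ATF3 (0.0608), IFIH1 (0.0705) and RIGI (0.0773) did not. In 9 fits that each left out 1 of the 9 libraries, ICAM1, ANXA1 and KRT4 were called every time and RIGI, NEXN and SCHIP1 never. All 43 kept their sign, which was fixed beforehand, because in none of them did the C36 and vehicle libraries overlap. ISG15 was called in 3 of the 9, with adjusted p from 0.00108 without C36 replicate 1 to 0.102 without vehicle replicate 2, and its log2 change stayed between 1.08 and 1.35. The number of called genes fell to 8, 7 and 7 without C36 replicates 1, 2 and 3, to 11, 5 and 8 without vehicle replicates 1, 2 and 3, and to 11 and 21 without MinE07 replicates 2 and 3. It rose to 68 without MinE07 replicate 1.

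The same C36 and vehicle treatments were given to 3 other lung cancer lines, with 3 libraries each: A549, whose EGFR is wild type and which was kept in DMEM, H1975, whose EGFR carries both L858R and T790M, and H820, whose EGFR carries T790M together with an exon 19 deletion. In A549, 22 of the 24 genes that rose in H3255 had the same sign, against 53.7% of all genes tested there, and 10 were called, where 6.11% of all genes were. These included ATF3 (0.57), HELZ2 (0.38), ISG15 (0.32), ZC3HAV1 (0.27), IFIH1 (0.27) and GDF15 (0.22). In H1975, 18 of 23 shared the sign, against 52.5% of all genes tested there. Limma called 0 of them, where 0.227% of all genes there were called, and 5 had an unadjusted p under 0.05. In H820, 13 of 21 shared the sign, against 52.8% of all genes tested there. The 2 called were SRXN1 and the SQSTM1 copy, where 2.86% of all genes were called. Of the genes that fell, 14 of 14 tested in H1975 were also lower, against 47.5% of all genes there, with ANXA3 called. In A549 11 of 15 were lower, against 46.3% of all genes, with 6 called, among them ANXA1, GPRC5A and S100A10. In H820 8 of 16 were lower, against 47.2% of all genes. S100A10 was called lower there, and NEXN, THBS1 and ANXA3 were called higher.

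Whether the change in H3255 differed from the mean change of the other 3 lines was tested in 1 fit of all 36 libraries. It called 113 genes (0.847%), 68 with a higher log2 change in H3255 (0.509%) and 45 with a lower one (0.337%). Of the 24 genes that rose 13 were among them, and of the 19 that fell 8. Both sets were chosen by their change in the same H3255 libraries that enter this difference. The overlap therefore follows in part from that choice, and the differences of these genes can be overstated by it. ISG15 rose by 1.14 more on the log2 scale than in the other lines (SE 0.112, limma adjusted p = 1.04e-06), and against A549 alone the difference was 0.93 (limma adjusted p = 0.000256). IFI6 differed by 1.02 (SE 0.112, limma adjusted p = 5.17e-06) and IRF9 by 0.61 (SE 0.104, limma adjusted p = 0.00238). The fit uses 1 spread per gene for all 4 lines, and these SEs are below those of the H3255 change alone (0.139, 0.151 and 0.112). Where a gene spreads more in H3255 than in the other lines, such a fit understates its SE and adjusted p. For ATF3, HELZ2, IFIH1, RIGI and ZC3HAV1 the difference from the mean of the other lines passed, but that from A549 alone, 0.02 to 0.13, did not. ICAM1 fell by 0.45 more than in the other lines (SE 0.0519, limma adjusted p = 5.17e-06), where its changes were -0.07 in H1975, 0.16 in H820 and 0.11 in A549. GDF15, SPRY4 and ANXA1 showed no called difference (limma adjusted p = 0.82, 0.905 and 0.0843).

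**Figure D5:**
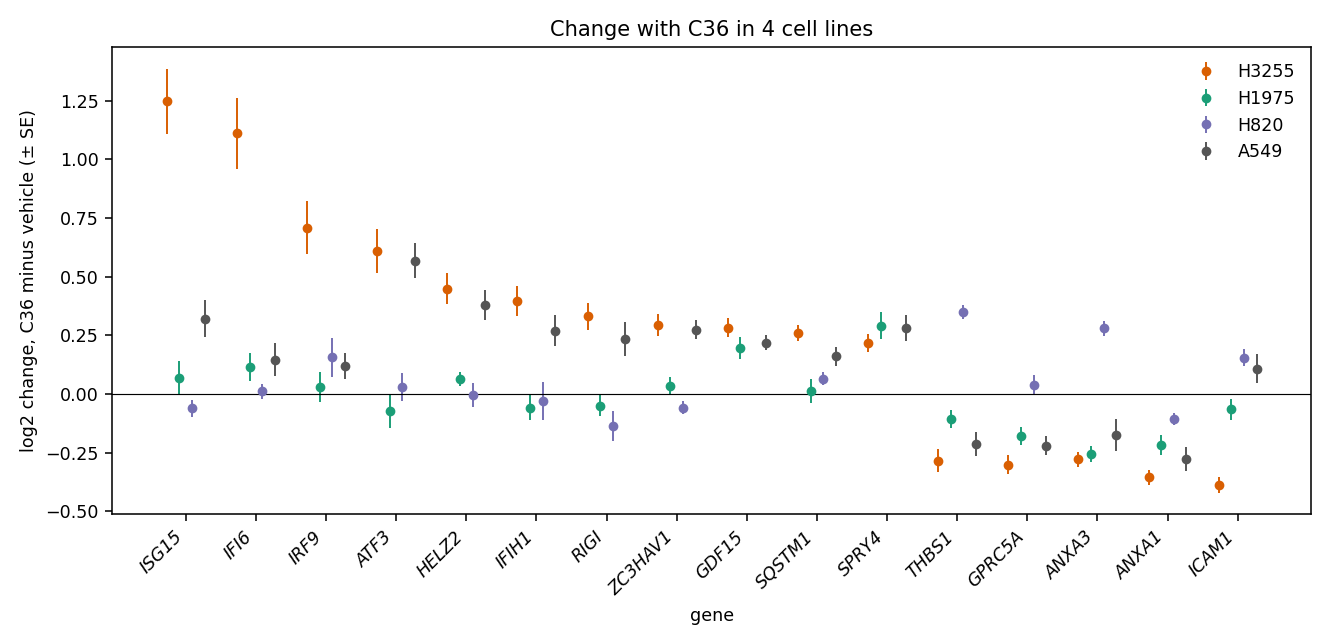
Log2 change, C36 minus vehicle, for 16 genes in 4 cell lines, with points at the fitted change and bars of 1 SE (limma, 3 libraries per group). A gene is drawn in a line only where it passed that line's filter. H3255 points of ISG15, IFI6 and IRF9 lie far above the other lines, whereas those of ATF3, HELZ2 and ZC3HAV1 lie near A549.

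MinE07 in H3255 was compared with the same vehicle libraries, so the 2 comparisons share controls and their values are only set side by side. With MinE07, 38.6% of tested genes were called. ISG15 stood at 7.76, 7.25 and 8.13 FPKM with MinE07 (log2 change from vehicle 0.08, against 1.25 with C36). IRF9 stood at 1.97, 2.38 and 2.58 (-0.41 against 0.71), ATF3 at 0.625, 0.719 and 0.755 (-0.34 against 0.61) and IFI6 at 5.39, 5.42 and 5.53 (0.56 against 1.11). GDF15 changed by -0.59 with MinE07 and 0.28 with C36, and SPRY4 by -0.64 and 0.22. ASNS changed by 0.81 with MinE07 and 0.24 with C36. ICAM1 measured 135.0, 143.3 and 137.8 FPKM with MinE07 (-0.87 against -0.39), and ANXA1 changed by -0.65 against -0.36. KRT4 measured 24.0, 25.4 and 25.7 FPKM with MinE07, a change of 1.26 against -0.40 with C36, and LBH changed by 0.50 against -0.27.

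Some larger changes belonged to genes listed at 0 in some libraries and were not called. TRNE, a mitochondrial transfer RNA gene, was listed at 0, 210.9 and 0 FPKM with C36 and at 393.7, 260.7 and 481.6 with vehicle. SNORA18, a small nucleolar RNA, was listed at 0 in each C36 library and at 5.39, 4.41 and 9.19 FPKM with vehicle. SNORA22 and RNU6-11P were also listed at 0 in each C36 library, with vehicle values between 2.71 and 21.0 FPKM. In the other direction the pseudogene HNRNPDLP5 was listed at 20.8, 12.3 and 12.7 FPKM with C36 and at 0 in each vehicle library. No fold is given for genes listed at 0.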

How the data were processed

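RNA was sequenced from poly-A libraries of a stranded kit as pairs of 100 bases, per the labels' protocols. Each library has its own table of FPKM by gene, as the authors deposited it. The submitters' processing notes name HISAT2, Cuffdiff, GRCh38.p12 and hg38, without roles or versions. Each file has 68271 entries; 1874 without a name and 31 that share 15 repeated names were left out, and 7486 numbered copies were kept.

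Values were analysed as log2(FPKM + 0.5) in limma 3.58.1 (R 4.3.3) with an intensity trend and robust moderation, over the 9 H3255 libraries with 3 group means. Tests were two-sided, with calls at a Benjamini-Hochberg adjusted p of less than 0.05. On simulated data with independent noise in each gene, the comparison recovered 89% of genes changed by 0.5 on the log2 scale. It recovered 99% of those changed by 1, with 9 false calls in a set of 13349 genes. Changes near 0.28, the median of called genes, were not simulated, nor were deviations shared across the genes of a library. These rates need not hold for the real libraries. Gene coordinates come from GENCODE 29 and promoters from RefSeq. Named genes were every called gene, fixed ERBB and interferon genes, the extremes of each list and the largest uncalled or line-specific changes. The members and lists were chosen with earlier results of these data known. Alternatives covered scaling, filter, pseudocount, moderation, libraries, numbered copies, a replicate block and, chosen after seeing the data, library weights. 1 gene of the lists is not reported here by name.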

Additional observations from a re-analysis of the deposited data

Results flagged for a closer look

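The test of the difference between the change with C36 in H3255 and the mean change of the other 3 lines called 113 genes. Among them were 21 of the 43 called entries, which were picked by their change in H3255 libraries that enter the difference. Those 21 and 4 further genes are given here. Among those that rose more in H3255, the difference on the log2 scale was 1.14 for ISG15, 1.02 for IFI6, 0.77 for the numbered copy of IRF9 (IRF9-2), 0.61 for IRF9, 0.46 for THAP3, 0.43 for ATF3, 0.34 for IFIH1, 0.31 for RIGI and 0.30 for HELZ2. It was 0.21 for ZC3HAV1, 0.19 for AVL9, 0.18 for SQSTM1 and 0.12 for SRXN1. Among those that fell, it was -0.45 for ICAM1, -0.40 for KRT4, -0.40 for NEXN, -0.36 for RGS16, -0.30 for THBS1, -0.23 for ANXA3, -0.21 for NDNF and -0.21 for CADM1. RGS16 and NDNF passed the filter in none of the other lines, where a change of log2(FPKM + 0.5) is held near 0, so their difference mostly restates the change in H3255. KRT4 and CADM1 did not pass it in H1975, nor NEXN in A549. For THBS1 and ANXA3, which rose in H820, the difference was called against H820 alone (-0.63 and -0.56) but not against H1975 (-0.18 and -0.02) or A549 (-0.07 and -0.10).

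The 4 further genes had the largest called differences in each direction among the genes without a called change in H3255 alone. They were MT1X, a metallothionein with near-identical relatives (1.21), the numbered copy of the small nucleolar RNA host gene SNHG9 (SNHG9-2, 1.12), the histone gene H4C14 (-0.54) and SAMD4A, an RNA-binding repressor of translation (-0.51). MT1X stood at 12.7, 15.8 and 14.4 FPKM with C36 and at 10.2, 7.54 and 8.06 with vehicle in H3255. Its log2 change was 0.71 there and -0.35, -0.61 and -0.56 in H1975, H820 and A549, so the difference holds lower values in those lines as well. SAMD4A changed by -0.31 in H3255 and by -0.02, 0.40 and 0.21 in the other lines, in the same order. H4C14 changed by -0.40 in H3255 and by 0.26, -0.16 and 0.32, and SNHG9-2 by 1.00 and by -0.09, -0.10 and -0.17.

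When each of the 6 H3255 libraries of the comparison was left out in turn, the difference was called all 6 times for ISG15, IFI6, IRF9, IRF9-2, ICAM1, KRT4, THBS1, MT1X and SAMD4A. It was called in none of the 6 for ANXA3 and NDNF. Of the 25 genes, 10 were called without C36 replicate 1, 14 without C36 replicate 2, 17 without C36 replicate 3, 12 without vehicle replicate 1, 19 without vehicle replicate 2 and 16 without vehicle replicate 3.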

How the results depend on the processing

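No called gene changed sign under any alternative run. Runs that left out libraries or changed the filter, pseudocount or moderation could not reverse one, because no called gene overlapped between groups. The count of genes called for C36 against vehicle in H3255, 43, moved with most settings. It was 26 with the 6 libraries only (17 of the 43 among them), 381 with all 36, 139 after median-of-ratios scaling (34 higher, 105 lower, or 24.5% higher against 55.8%), 91 after quantile normalization, 6 without a filter, 92 with a mean FPKM of at least 5, 6 without trend or robust moderation and 91 with library weights, which were chosen after seeing the data. The 6 without moderation were ANXA1, ANXA3, ICAM1, ISG15, KRT4 and RGS16. Leaving out single libraries gave 5 to 68. The count of genes whose change differed from the other lines, 113, was 321 after quantile normalization, 187 without a filter, 70 with a mean FPKM of at least 5 and 34 to 85 without single libraries; after median-of-ratios scaling 40.9% were higher against 60.2%. The replicate block left 17 genes (7 higher, 10 lower), 15 of them among the 43, and gave 121 for the difference between lines. ICAM1, ANXA1, KRT4, GDF15, ASNS and SQSTM1 passed with the block, as did ISG15 (limma adjusted p = 0.0375). IFI6 (limma adjusted p = 0.0979), IRF9 (0.105), ATF3 (0.0596), IFIH1 (0.0570) and RIGI (0.0944) did not. Deviations of same-numbered C36 and vehicle libraries correlated at -0.16, -0.12 and -0.13. For MinE07 and vehicle the values were 0.29, 0.00 and 0.17, and for C36 and MinE07 0.02, 0.17 and 0.02. As deviations from means of 3 libraries, they cannot show whether same-numbered libraries form pairs. The numbers were not taken as a pairing in the main fit, and whether they are one is not known. The causes were not tested. Depth is known only in relative terms, so no counting interval could be given, and low genes rest on an unknown number of fragments.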

Other observations

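Among genes under the mean of 1 FPKM and outside the interferon lists, 6 of the 24 untested NF-kB targets and cytokines had every C36 library above every vehicle library, and 1 had every one below, against 5.02% and 3.5% of all genes under that mean with a value above 0. CXCL10, a chemokine induced by interferon, was listed at 0.0524, 0.136 and 0.141 FPKM with C36 and at 0 in each vehicle and each MinE07 library of H3255. CCL5, a chemokine that attracts T cells, was listed at 0.121, 0.182 and 0.269 FPKM with C36, at 0, 0 and 0.00841 with vehicle and at 0.0281, 0 and 0.0218 with MinE07. CCL20 was listed at 0.139, 0.183 and 0.190 FPKM with C36, at 0, 0.0448 and 0 with vehicle and at 0 in each MinE07 library. In the fit without a filter none of these 3 was called (limma adjusted p = 0.188 for CXCL10, 0.158 for CCL5 and 0.0813 for CCL20). All these levels are low, and the number of fragments behind them is not known.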
